A study of Mus musculus with 24 samples.

Results

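The 10 mature miRNAs examined here come from the maternally expressed Dlk1-Dio3 imprinted locus: miR-127-3p, miR-127-5p, miR-136-5p, miR-136-3p, miR-431-5p, miR-433-3p, miR-434-3p, miR-434-5p, miR-337-3p, and miR-370-3p. They were chosen by name, and are 10 of the 1531 mouse mature miRNAs counted by miRNA-Seq. The libraries came from CD1 mouse pups of both sexes at postnatal day 9 that had neonatal hypoxic-ischemic brain injury (HIBI) or sham surgery, with 4 pups in each group. In HIBI the right common carotid artery was cauterized and, after 2 h of recovery, the pup spent 30 min at 8% oxygen. Isoflurane, bupivacaine, and the opening of the neck were common to both groups, so that sham pups lacked the carotid occlusion and the low oxygen. From each pup 3 regions of the right side were collected 30 min after injury (cerebellum, striatum/thalamus, and cortex), giving 24 libraries from 200 ng of RNA each. The ligated artery feeds the forebrain regions, so that in this model the cerebellum is exposed to the hypoxia and not to the ischemia, and there was no group with hypoxia alone. HIBI pups were numbered 1, 4, 5, and 7, and sham pups 2, 3, 6, and 8.

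The Dlk1-Dio3 locus is imprinted: Dlk1, Rtl1, and Dio3 are expressed from the paternal chromosome, and the long non-coding RNAs Meg3, Rian, and Mirg, together with a large number of miRNAs and snoRNAs, from the maternal one. Rtl1 is a gene derived from a retrotransposon, needed in the placenta, and a maternal transcript runs across it in the opposite direction, so that the miRNAs cut from that transcript are fully complementary to the Rtl1 mRNA. Each hairpin gives a 5p and a 3p arm, of which the more abundant is usually the guide that Argonaute keeps, and these miRNAs are known for high levels in neurons.

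On the GRCm38 build the 7 hairpins lay on the plus strand of chromosome 12 between positions 109585789 and 109618336, a span of 32548 bases. Those of miR-431 (109590447 to 109590537), miR-433 (109591715 to 109591838), miR-127 (109592846 to 109592915), miR-434 (109594506 to 109594599), and miR-136 (109595327 to 109595388) lay opposite the coding exon of Rtl1, which is on the minus strand. The hairpin of miR-337 (109585789 to 109585885) lay in no gene of the GENCODE M21 annotation, so the name of Rtl1-antisense miRNA did not hold for it there. MiR-370 (109618258 to 109618336) lay in an intron of Rian, on the same strand. The mature sequences, from RefSeq on GRCm38.p6, are shown because they give each miRNA its targets and decide which reads it can be confused with. Bases 2 to 8, the seed that pairs with target mRNAs, are in capitals.
mmu-miR-337-3p: uCAGCUCCuauaugaugccuuu
mmu-miR-431-5p: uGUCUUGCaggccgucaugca
mmu-miR-433-3p: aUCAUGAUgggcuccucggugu
mmu-miR-127-5p: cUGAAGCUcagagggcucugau
mmu-miR-127-3p: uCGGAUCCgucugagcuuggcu
mmu-miR-434-5p: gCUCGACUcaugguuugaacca
mmu-miR-434-3p: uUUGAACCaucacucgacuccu
mmu-miR-136-5p: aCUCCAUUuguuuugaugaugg
mmu-miR-136-3p: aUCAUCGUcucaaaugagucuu
mmu-miR-370-3p: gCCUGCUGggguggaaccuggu
No seed was shared with another of the mouse mature miRNAs in the RefSeq table, or between any pair of the 10. The longest stretch shared on the same strand with any other mature miRNA was 8 to 11 bases, so their reads are not easily exchanged with those of a near-identical copy.

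Of the 10 miRNAs, the 8 from the hairpins of miR-127, miR-136, miR-431, miR-433, and miR-434 had a site complementary over their full length of 21 or 22 bases in the coding sequence of the Rtl1 transcript. MiR-337-3p and miR-370-3p had none. The Rtl1 sites of the most abundant miRNAs are shown as DNA of the transcript's own strand, with the bases that pair with the seed in capitals.
Rtl1 site of miR-434-3p: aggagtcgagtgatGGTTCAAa
Rtl1 site of miR-433-3p: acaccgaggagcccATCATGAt
Rtl1 site of miR-127-3p: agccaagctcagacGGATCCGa
Rtl1 mRNA was not measured in these libraries.

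**Figure D1:**
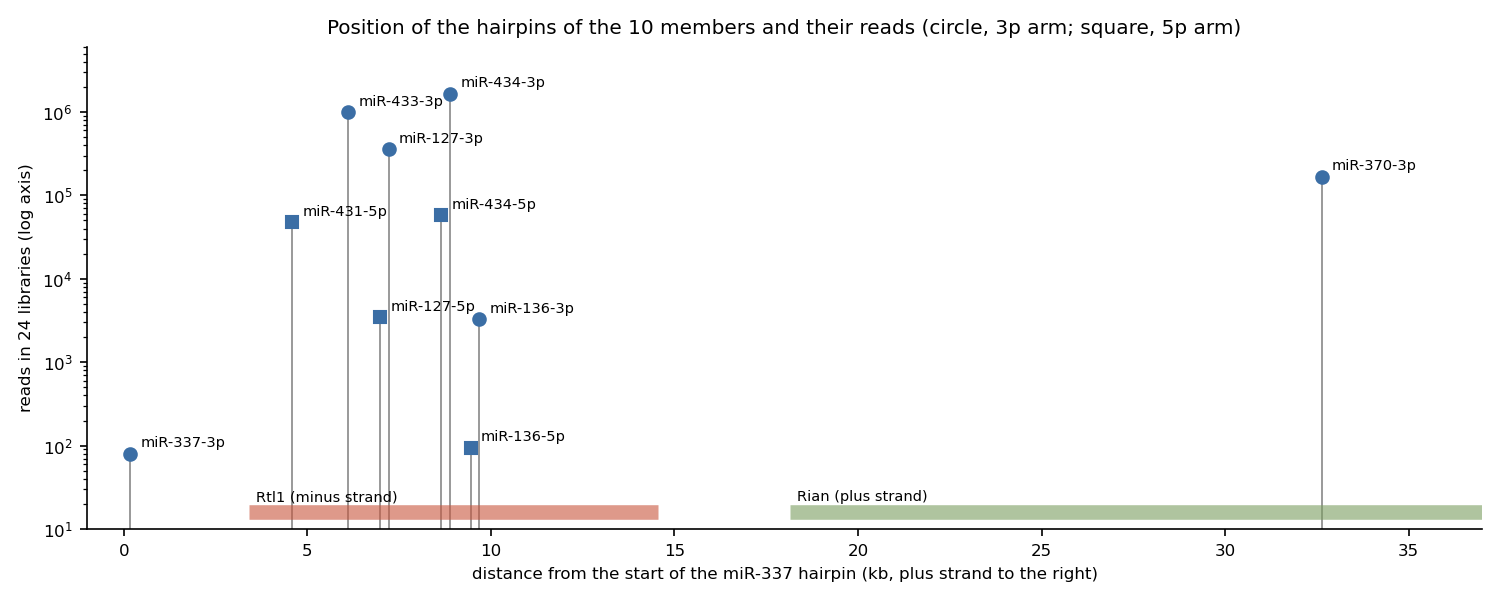
Hairpins of the 10 miRNAs by distance in kb from the start of the miR-337 hairpin (x axis), with the reads of each mature miRNA summed over 24 libraries on a log axis (y axis; circles, 3p arms; squares, 5p arms) and bars for Rtl1 and Rian. MiR-434-3p (1657479 reads) and miR-433-3p (1004631 reads) stand highest, and miR-136-5p (95 reads) and miR-337-3p (80 reads) lowest.

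Each library held 1254185 to 3406624 mouse miRNA counts. Levels are given as counts per 1e6 counts (CPM), after each library total was multiplied by its TMM scaling factor. Reads and percent shares are not scaled in this way. The neuron-enriched miR-124-3p, miR-9-5p, miR-128-3p, and miR-138-5p summed in sham pups to 195937 to 224022 CPM in cortex, 120205 to 191021 CPM in cerebellum, and 88638 to 152553 CPM in striatum/thalamus, and none of these 4 was at 0 throughout any group. Cerebellar libraries also held 345 to 651 CPM of the skeletal muscle miRNAs miR-1a-3p, miR-133a-3p, and miR-206-3p, against 28.4 to 141 CPM in the other regions. The part of such differences in tissue makeup in the results was not tested. In bulk tissue, fewer cells of a type and less of a miRNA per cell cannot be told apart.

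The abundance of the 10 miRNAs was very unequal. Of their reads, miR-434-3p held 50.3%, miR-433-3p 30.5%, miR-127-3p 10.8%, and miR-370-3p 5.10%. MiR-434-5p held 1.75% and miR-431-5p 1.45%, and the other 4 together held the rest. MiR-136-5p was at 0 in 6 libraries and miR-337-3p in 10. The last 2 averaged 1.72 and 1.44 CPM over the 24 libraries and were the only members below the minimum of an average above 10 CPM used for the tests, so that 8 of 10 were tested. Each read is a mature miRNA of 21 or 22 bases, so levels need no scaling for length, although the ligation of adapters favors some sequences and the order is one of reads.

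The order of levels in sham pups was nearly the same in each region. In the cerebellum miR-434-3p (16168 ± 3992 CPM; SD, n = 4) was followed by miR-433-3p (8418 ± 2042), miR-127-3p (3650 ± 563), and miR-370-3p (1442 ± 447), and none of these 4 overlapped with its neighbor. In the striatum/thalamus the lowest miR-434-3p value (40875 CPM) was under the highest of miR-433-3p (42051 CPM), so that the leading miRNAs overlapped there. MiR-434-5p and miR-431-5p did not overlap in the cortex (1453 to 1609 against 997 to 1163 CPM) and overlapped in the striatum/thalamus (950 to 1064 against 907 to 1184 CPM). MiR-127-5p and miR-136-3p overlapped in all 3 regions, at sham means between 37.1 and 83.4 CPM.

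Together the 10 miRNAs made up 2.98% ± 0.876 of mouse miRNA counts in the sham cerebellum, 5.95% ± 0.631 in the sham cortex, and 9.28% ± 1.42 in the sham striatum/thalamus (SD, n = 4 pups). The sham regions did not overlap: the highest cerebellar library was at 4.11%, the lowest cortical library was at 5.11%, and the lowest striatal/thalamic library was at 7.55%. In HIBI pups the shares were 4.29% ± 1.81, 6.03% ± 0.797, and 9.70% ± 0.990 for cerebellum, cortex, and striatum/thalamus. The cerebellum of HIBI pup 1 stood apart at 7.00%, while the other HIBI cerebella were at 3.19% to 3.62%. That library was also the shallowest of all 24 and had a TMM scaling factor of 1.24, against 0.840 to 1.07 in the other cerebella, and values after injury in the cerebellum are given below with and without it.

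Levels were first compared between the regions, which the design allows within each pup. MiR-434-3p was present at 12610, 13375, 21237, and 17451 CPM in the cerebella of sham pups 2, 3, 6, and 8. In their striatum/thalamus it was at 52052, 45940, 40875, and 42673 CPM. Their cortices held 28158, 34758, 33584, and 24691 CPM. The 3 regions therefore did not overlap in sham pups, with the striatum/thalamus highest and the cerebellum lowest. HIBI pups 1, 4, 5, and 7 had 28311, 14662, 17394, and 17810 CPM of miR-434-3p in the cerebellum. The striatum/thalamus of the same pups had 45951, 48865, 46743, and 53005 CPM. In the cortex of HIBI pups the levels were 30019, 29551, 27876, and 31728 CPM. The order of the 3 regions was the same in each of the 8 pups, although the cerebellum of HIBI pup 1 overlapped with the cortices. In that pup the order rested on the scaling. Before it, the cerebellum (44039 of 1254185 counts) had a larger share than the cortex (54175 of 1812883 counts).

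MiR-433-3p had an even larger range. Sham cerebella held 6021, 7490, 10509, and 9653 CPM (pups 2, 3, 6, and 8), and HIBI cerebella 14487, 10489, 9591, and 7318 CPM (pups 1, 4, 5, and 7). Sham striatum/thalamus held 35405, 28216, 25241, and 42051 CPM, and that of HIBI pups 35775, 54897, 21166, and 37591 CPM. Sham cortices held 13065, 15038, 18089, and 14663 CPM, and HIBI cortices 25227, 16526, 10985, and 11388 CPM. In sham pups the regions again did not overlap, and within each of the 8 pups the level was highest in the striatum/thalamus and lowest in the cerebellum. The spread between HIBI pups was wide in the forebrain, with pup 1 highest in cortex and pup 4 highest in striatum/thalamus.

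The passenger arm of the miR-434 hairpin was, like its guide, lowest in the cerebellum of sham pups. It differed from the guide in the order of the forebrain regions. MiR-434-5p was at 510, 614, 819, and 758 CPM in sham cerebella and at 872, 871, 953, and 756 CPM in HIBI cerebella. Sham striatum/thalamus held 1064, 971, 1000, and 950 CPM, and that of HIBI pups 1059, 1193, 816, and 789 CPM. Sham cortices held 1453, 1484, 1609, and 1555 CPM, and HIBI cortices 1344, 1295, 1302, and 1335 CPM. Here the cortex was the highest region, in 8 of 8 pups, where miR-434-3p was highest in the striatum/thalamus in 8 of 8 pups.

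MiR-127-3p, whose full complementarity to Rtl1 is among the best known of the locus, was higher in cortex than in striatum/thalamus in 8 of 8 pups and than in cerebellum in 7 of 8. Before scaling, sham pup 8 had the reverse order of the forebrain regions (19011 of 2534005 counts in cortex, 15782 of 1954164 in striatum/thalamus). Its levels in the cerebella of sham pups 2, 3, 6, and 8 were 2841, 3710, 3947, and 4103 CPM, below the 6710, 6821, 6921, and 7811 CPM of the striatum/thalamus and the 7772, 9389, 7968, and 7958 CPM of the cortex. HIBI pups 1, 4, 5, and 7 had 9513, 4180, 3783, and 3425 CPM in the cerebellum, 6752, 5570, 6236, and 6099 CPM in the striatum/thalamus, and 9223, 8198, 8829, and 9828 CPM in the cortex. Only the cerebellum of HIBI pup 1 was at the level of the forebrain libraries. MiR-370-3p, from the Rian intron, was at 915, 1551, 1985, and 1318 CPM in sham cerebella, at 3915, 3262, 2886, and 4135 CPM in the sham striatum/thalamus, and at 4932, 4615, 4302, and 4098 CPM in sham cortices. Its HIBI values were 2729, 2025, 1991, and 1290 CPM in cerebellum, 4343, 3796, 2858, and 3693 CPM in striatum/thalamus, and 4050, 3914, 3628, and 3056 CPM in cortex. Every forebrain library was above every cerebellar library for miR-370-3p, and the same held for miR-431-5p, with 392 to 570 CPM in cerebella and 878 to 1353 CPM in the forebrain. For miR-370-3p this rested on the scaling. Before it, the cerebellum of HIBI pup 1 (4245 of 1254185 counts) had a larger share than the striatum/thalamus of sham pup 6 (6045 of 2162494 counts).

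**Figure D2:**
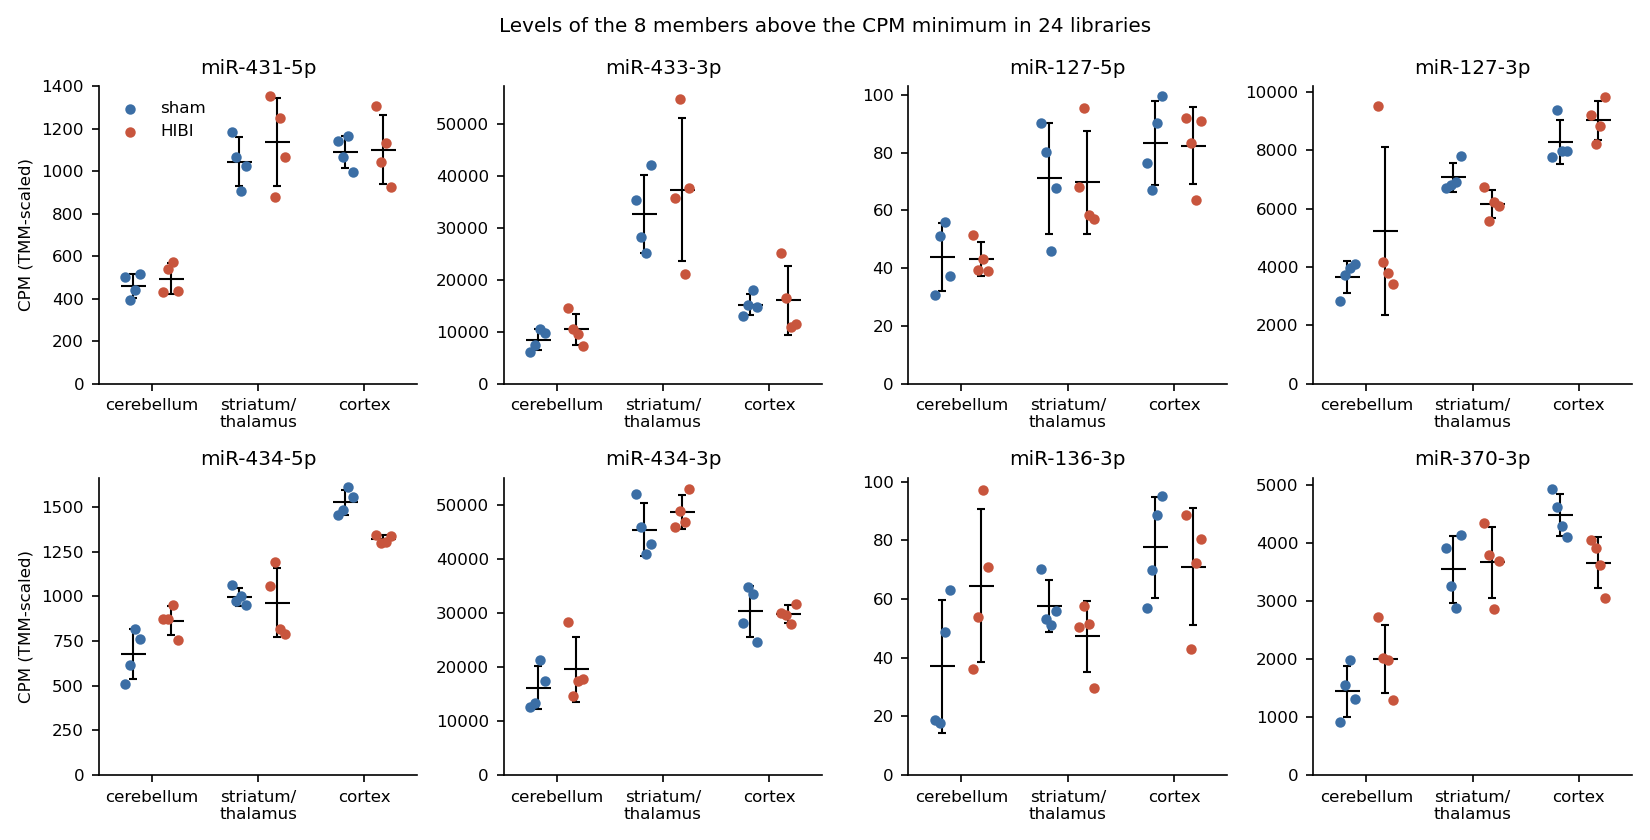
Level in CPM after TMM scaling (y axis, from 0) of the 8 tested miRNAs in the 24 libraries, by region (x axis), with 1 point for each pup (blue, sham; red, HIBI) and the mean and SD of 4 pups in black. MiR-434-3p and miR-433-3p peak in the striatum/thalamus, miR-434-5p in the cortex, and the cerebellum of HIBI pup 1 is the high point for miR-127-3p (9513 CPM).

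In sham pups, 8 of 8 tested members were higher in the cortex than in the cerebellum at an adjusted p-value under 0.05, where 29.9% of the 435 miRNAs tested were called higher (58.6% in either direction). The fitted log2 differences ran from 0.85 (SE 0.283) for miR-433-3p to 1.64 (SE 0.222) for miR-370-3p. Their median was 1.12, against -0.11 for all miRNAs tested. MiR-431-5p was higher by 1.24 (SE 0.166; edgeR quasi-likelihood test, Benjamini-Hochberg adjusted p = 1.48e-06). Between 6 and 8 of the members remained past the threshold when any 1 pup was left out, and those lost were miR-127-5p, miR-136-3p, and miR-433-3p.

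The striatum/thalamus of sham pups was higher than the cerebellum for 7 of 8 members, where 31.7% of all miRNAs tested were called higher (62.8% in either direction). MiR-433-3p had the largest difference, with a log2 value of 1.96 (SE 0.291; edgeR, Benjamini-Hochberg adjusted p = 4.40e-06), followed by miR-434-3p at 1.49 (SE 0.196; adjusted p = 1.12e-06 by edgeR). MiR-136-3p was the member not called, at 0.63 (SE 0.364; edgeR, Benjamini-Hochberg adjusted p = 0.132). The median of the members was 1.07, against -0.10 for all. Without sham pup 2, miR-127-5p and miR-434-5p were no longer called (log2 0.42 and 0.41). Without sham pup 8, miR-127-5p was not called (0.64) and miR-136-3p was (1.03).

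Between the forebrain regions of sham pups 3 of 8 members differed, near the background of 33.1% (17% higher and 16.1% lower in cortex), and they did so in opposite directions. Cortex was below striatum/thalamus for miR-433-3p by a log2 difference of -1.11 (SE 0.284; edgeR, Benjamini-Hochberg adjusted p = 0.00491) and for miR-434-3p by -0.58 (SE 0.193; edgeR, adjusted p = 0.0227). MiR-434-5p was higher in cortex by 0.61 (SE 0.159; edgeR, adjusted p = 0.00498). The other 5 members had differences between 0.06 and 0.43 and did not pass. Without sham pup 8 only miR-433-3p was still called. Without sham pup 2, miR-434-3p was lost (-0.48). The 3 comparisons share their sham libraries in pairs and are not independent.

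HIBI pups gave the same comparisons in other animals. The fits were not independent of those in sham pups, since 1 model of 24 libraries gave both a shared scaling and estimate of the spread. Cortex was above cerebellum for 6 of 8 members (16.3% of all miRNAs tested were called higher, 36.1% in either direction), and striatum/thalamus above cerebellum for 5 of 8 (28.3% higher, 55.4% in either direction). With any 1 pup left out these counts were 4 to 6 and 4 to 5, and with no CPM minimum the first was 3. Without HIBI pup 1 the counts were 6 and 5, and 1 member was below 0 in cortex against cerebellum. Cortex and striatum/thalamus differed for the same 3 members as in sham pups (37.9% of all were called): miR-433-3p at -1.22 (SE 0.285; edgeR, Benjamini-Hochberg adjusted p = 0.00239), miR-434-3p at -0.71 (SE 0.193; edgeR, adjusted p = 0.00688), and miR-434-5p at 0.45 (SE 0.159; edgeR, adjusted p = 0.0283). The last was not called without sham pup 3 (0.43), HIBI pup 5 (0.39), or HIBI pup 7 (0.36). MiR-127-3p was higher in cortex in 8 of 8 pups after scaling. Its log2 difference in HIBI pups was 0.55 without the pup as a block, which was not called. With the block it was 0.56 and was called (edgeR, Benjamini-Hochberg adjusted p = 0.0565 and 0.0295).

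The ratio of the arms of 1 hairpin is read within a library and needs no scaling between libraries. It was taken as log2 of the 3p reads over the 5p reads, with 0.5 read added to each. For miR-434 the ratio of 3p to 5p reads was 16.8 to 32.5 in the 8 cerebella (median 23.3), 40.9 to 67.2 in the striatum/thalamus (median 46.1), and 15.9 to 23.8 in the cortex (median 21.9). The striatum/thalamus did not overlap with either of the other regions. Within a pup its log2 ratio was above that of the cerebellum by 1.07 ± 0.413 and above that of the cortex by 1.19 ± 0.272 (SD, n = 8 pups; higher in 8 of 8 pups for each; exact two-sided sign-flip permutation test, p = 0.0078125, the smallest that 8 pups allow, and 0.0352 after Benjamini-Hochberg adjustment over 9 tests). Cortex and cerebellum did not differ detectably, at -0.12 ± 0.367 (exact permutation p = 0.391, adjusted 0.945).

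For miR-127, the other hairpin of which both arms are well covered members, no such difference was detected. Its 3p to 5p ratio had medians of 89.6 in cerebellum, 103 in striatum/thalamus, and 101 in cortex, and the largest log2 difference between regions was 0.13 ± 0.558 (SD, n = 8; exact permutation p = 0.547, adjusted 0.945). MiR-433 was added after its values had been seen. With miR-433-5p, which is not a member, its ratio had a median of 74.2 in the striatum/thalamus, 36.0 in the cerebellum, and 31.0 in the cortex. The striatum/thalamus was higher than the cerebellum by 0.98 ± 0.550 and than the cortex by 0.98 ± 0.491 on the log2 scale, in 8 of 8 pups for each (exact permutation p = 0.0078125, adjusted over 21 tests 0.0410), although the ranges of the regions overlapped. MiR-433-5p itself was at 508 ± 46.4 CPM in sham striatum/thalamus and 489 ± 94.4 CPM in sham cortex, while miR-433-3p was at 32728 ± 7539 and 15214 ± 2099 CPM (SD, n = 4). The other hairpins added with it did not share the pattern. The miR-370 ratio had its lowest median in the striatum/thalamus (290, against 435 in cerebellum and 414 in cortex), at -0.45 ± 0.781 from cerebellum on the log2 scale and not called. The miR-431 ratio, in which the 5p arm leads, differed from that of the cerebellum by -0.42 ± 0.624 in striatum/thalamus and by -0.43 ± 0.431 in cortex (exact permutation p = 0.125 and 0.0234, adjusted over 21 tests 0.375 and 0.0984). For miR-337 the differences between regions were -0.55 to 0.15, on few reads of its 3p arm, and were not called.

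**Figure D3:**
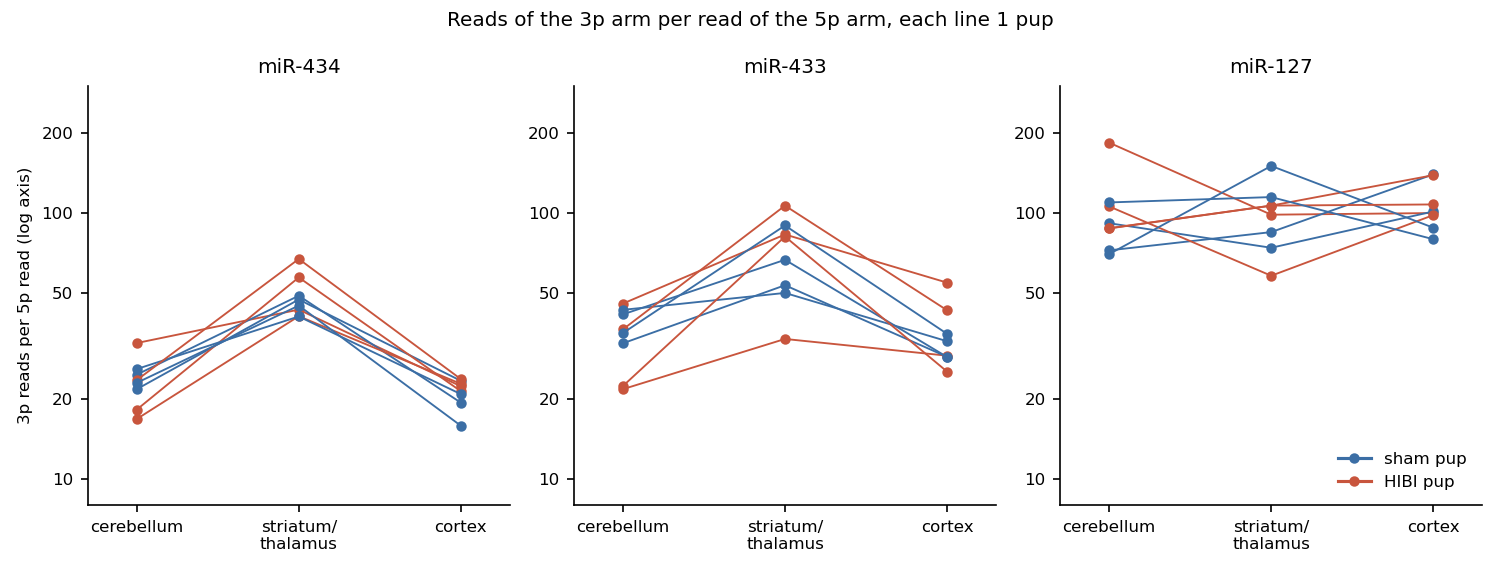
Reads of the 3p arm per read of the 5p arm, with 0.5 read added to each (y axis, log scale), for miR-434, miR-433, and miR-127 by region (x axis), with 1 line for each pup (blue, sham; red, HIBI). The lines of miR-434 and miR-433 peak in the striatum/thalamus in 8 of 8 pups, and those of miR-127 cross.

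HIBI was then compared with sham in each region. The study's criteria, a change of more than 1.5-fold with p under 0.05 before adjustment, were used for calls. No member was called in any region: 0 of 8 in the cerebellum, where 7.83% of the miRNAs tested were called, 0 of 8 in the striatum/thalamus, where 2.75% of 436 were, and 0 of 8 in the cortex, where 3.41% of 410 were. In edgeR's quasi-likelihood test 0 members had an unadjusted p under 0.05 (10.1%, 3.21%, and 4.63% of all miRNAs in the same order), and DESeq2 and edgeR's exact test also called 0 members in each region. The smallest adjusted p-values of the members were 0.432, 0.980, and 0.914 in the 3 regions (edgeR, Benjamini-Hochberg). The intervals below give the size of change that 4 pups in each group could not resolve.

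In the cerebellum 7 of 8 members had fitted values above 0, where 42.6% of all miRNAs were below it, and their median log2 difference was 0.36 against 0.11 for all. Without the library of HIBI pup 1 these medians were 0.14 and 0.04. MiR-136-3p had the largest value, 0.83 (SE 0.440; 95% confidence interval -0.13 to 1.79; edgeR, Benjamini-Hochberg adjusted p = 0.432). It was at 18.7, 17.7, 48.7, and 63.1 CPM in sham pups 2, 3, 6, and 8 and at 36.0, 53.8, 97.3, and 71.0 CPM in HIBI pups 1, 4, 5, and 7, so that the groups overlapped and sham pups 2 and 3 were the low ones. MiR-127-3p (0.55, SE 0.332), miR-370-3p (0.49, SE 0.298), miR-434-5p (0.37, SE 0.211), miR-433-3p (0.34, SE 0.263), and miR-434-3p (0.31, SE 0.269) followed, and each of them overlapped between the groups as well.

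Several of these values rested on the cerebellum of HIBI pup 1. Without that library the log2 difference was 0.05 for miR-127-3p, 0.04 for miR-434-3p, and 0.11 for miR-433-3p. It was 0.27 for miR-370-3p, 0.34 for miR-434-5p, and 1.01 for miR-136-3p, which then met the criteria (edgeR, Benjamini-Hochberg adjusted p = 0.289). Leaving out sham pup 6 also gave 1 call, of miR-370-3p (0.67), and leaving out sham pup 8 gave miR-136-3p (1.13). The erythrocyte miRNAs miR-451a, miR-144-3p, and miR-486a-5p summed to 735 to 1325 CPM in sham cerebella and 579 to 787 CPM in HIBI cerebella, and the choroid plexus and ciliated-cell miRNAs to 2558 to 10184 and 2764 to 4054 CPM. Their part in the cerebellar values was not tested.

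In the striatum/thalamus and the cortex 5 of 8 members were below 0, where 53.7% of all miRNAs were. The largest values in the striatum/thalamus were -0.38 (SE 0.273) for miR-136-3p and -0.28 (SE 0.160; 95% confidence interval -0.63 to 0.07) for miR-127-3p. In the cortex they were -0.29 (SE 0.143; 95% confidence interval -0.60 to 0.02) for miR-370-3p and -0.21 (SE 0.114; 95% confidence interval -0.46 to 0.04) for miR-434-5p. These were also the tested members whose cortical groups did not overlap: the 4 HIBI cortices were below the 4 sham cortices for miR-434-5p (at most 1344 against at least 1453 CPM) and for miR-370-3p (at most 4050 against at least 4098 CPM). For miR-370-3p the gap rested on the scaling. Before it, the cortex of HIBI pup 1 (7309 of 1812883 counts) had a larger share than that of sham pup 8 (9789 of 2534005 counts). Groups did not overlap for 3.41% of all miRNAs tested in the cortex, and for no other tested member in any region (3.92% of all miRNAs in the cerebellum and 1.83% in the striatum/thalamus). Neither reached a fold change of 1.5, and their unadjusted p-values were 0.0888 and 0.0622 (edgeR, Benjamini-Hochberg adjusted p = 0.914 for each). For miR-434-3p in the cortex the interval was -0.32 to 0.27 around -0.02.

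**Figure D4:**
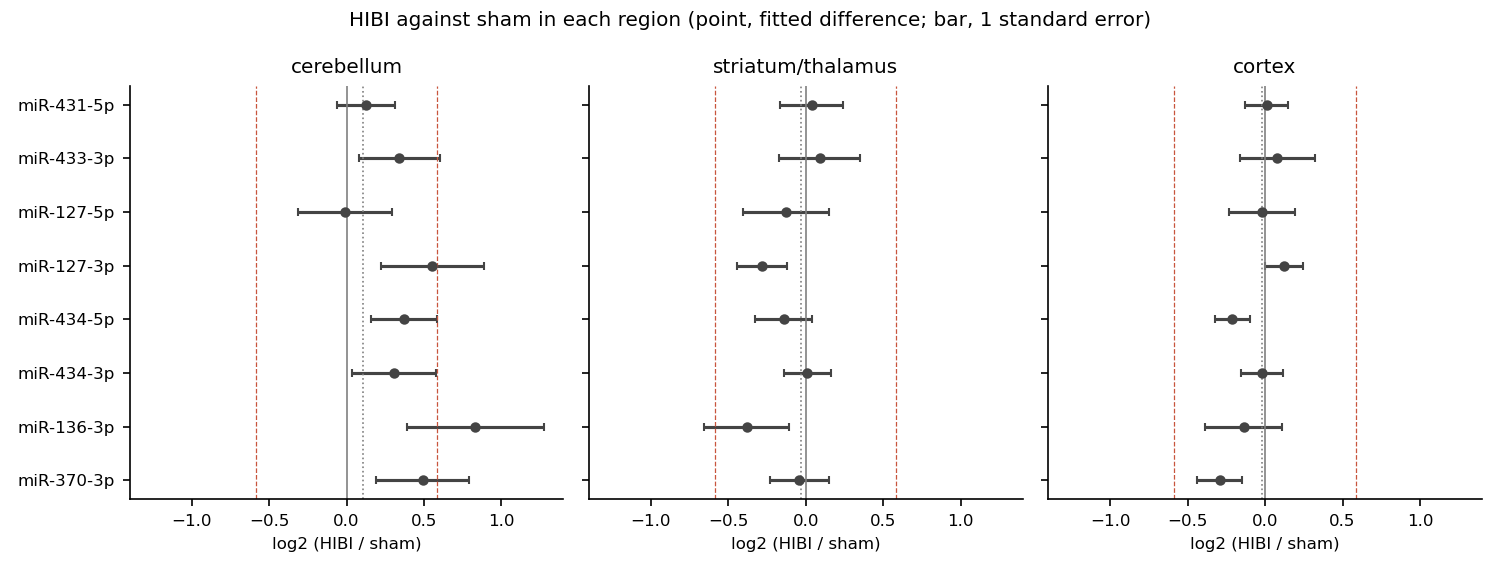
Fitted log2 difference of HIBI from sham (x axis; bar, 1 standard error) for the 8 tested miRNAs in each region, with a dotted line at the median of all miRNAs tested and dashed lines at a fold change of 1.5 in either direction. Cerebellar values lie mostly above 0 (median 0.36, or 0.14 without HIBI pup 1), and those of the other regions on either side of it.

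The HIBI differences of the forebrain regions and the cerebellum were also compared, although a difference between regions and one between hypoxia with and without ischemia cannot be told apart in this design. The mean HIBI difference of cortex and striatum/thalamus was below that of the cerebellum for 8 of 8 members (median log2 -0.36, against -0.04 for all, and -0.22 against -0.12 without HIBI pup 1). None passed: 0 of 435 miRNAs had an adjusted p-value under 0.05 (0%; edgeR's quasi-likelihood test, Benjamini-Hochberg), and DESeq2 called 0 as well, while 70 of them (16.1%) had an unadjusted p under 0.05. Among the members 3 did: miR-434-5p at -0.48 (SE 0.195; unadjusted p = 0.0205), miR-136-3p at -1.01 (SE 0.444; unadjusted p = 0.0322), and miR-370-3p at -0.60 (SE 0.265; unadjusted p = 0.0328). The smallest adjusted p among them was 0.227 (edgeR, Benjamini-Hochberg). With sham pup 2 or sham pup 3 left out, 0 members had an unadjusted p under 0.05. With upper quartile scaling, or without HIBI pup 5, 6 of 8 were below 0. Without HIBI pup 1, 7 of 8 members were below 0 and 2 had an unadjusted p under 0.05. The shift was not particular to the members. With all pups, 12 other arms and hairpins between Meg3 and Rian had a median log2 of -0.30. For 48 miRNAs of the Mirg cluster, further along the locus, the median was -0.53.

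The arm ratios of miR-127, miR-136, and miR-434 were not detectably changed after HIBI. Of 9 tests 0 had an unadjusted exact permutation p under 0.05, where 4 against 4 pups can reach 0.0286. A single ratio at that minimum would not pass after adjustment over the 9 tests, so the adjusted values could not call a change in 1 ratio alone. The smallest was 0.171 (adjusted 0.739), for miR-434 in the cortex, where the log2 ratio was 4.50 ± 0.0629 in HIBI and 4.30 ± 0.236 in sham pups (SD, n = 4). The hairpins added after their values had been seen gave smaller ones, down to an exact permutation p of 0.0571 (adjusted over 21 tests 0.400). These were miR-431 in the cortex (log2 difference -0.34) and miR-337 in the cortex (-2.74) and striatum/thalamus (-2.10). The miR-337 ratio rests on 0 to 15 reads of its 3p arm.

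MiR-136-5p and miR-337-3p were below the CPM minimum and did not enter the tests above. For miR-136-5p there were 0, 1, 8, and 0 reads in sham cerebella, 3, 0, 0, and 4 in sham striatum/thalamus, and 6, 8, 10, and 0 in sham cortices. HIBI pups had 2, 5, 4, and 4 reads in cerebellum, 0, 8, 2, and 10 in striatum/thalamus, and 1, 2, 10, and 7 in cortex. The groups overlapped in each region. Fitted with no CPM minimum, its log2 differences after HIBI were 0.64 (SE 1.34), 1.38 (SE 1.44), and -0.06 (SE 0.958) in cerebellum, striatum/thalamus, and cortex (edgeR, Benjamini-Hochberg adjusted p = 0.855, 0.780, and 0.993). A library at 0 allows up to 3 reads, or 1.02 to 2.36 CPM depending on its depth.

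The low count of miR-136-5p stood beside a far higher count on the other strand. The antisense partners here were chosen after their values were seen. The hairpin of miR-3071 lies on the minus strand across that of miR-136, and miR-3071-3p is the reverse complement of miR-136-5p over 20 bases, shown in capitals because a read of one is the mirror of the other.
mmu-miR-136-5p: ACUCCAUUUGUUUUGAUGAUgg
mmu-miR-3071-3p: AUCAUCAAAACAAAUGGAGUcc
MiR-3071-3p had 5015 reads, 42 to 411 in each library, and was above miR-136-5p in 24 of 24 libraries. For the other arm the order was turned, with 3267 reads of miR-136-3p and 12 of miR-3071-5p. How strand was treated in the counting is not given in the sources used here, so reads of such a pair cannot be told apart with certainty, and the miR-136 arm ratio rests on 0 to 10 reads of its 5p arm.

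MiR-337-3p had 4, 15, 4, and 7 reads in the cortices of sham pups 2, 3, 6, and 8 and 0, 0, 3, and 0 in those of HIBI pups 1, 4, 5, and 7. In the striatum/thalamus it had 1, 10, 6, and 11 reads in sham and 0, 0, 4, and 1 in HIBI pups, and in the cerebellum 0, 0, 6, and 0 against 5, 3, 0, and 0. The cortical groups did not overlap, by 3 reads against 4, and those of the other regions did. Of the 880 miRNAs with a read in a cortex and below the CPM minimum, 2.39% did not overlap. The 0 of HIBI pup 1 allows up to 1.65 CPM, above the lowest sham cortex (1.21 CPM, pup 6), so that counting error covers the gap between these libraries. This limit does not apply to the groups as a whole, which summed to 30 reads in sham and 3 in HIBI cortices. Fitted with no CPM minimum, where 1290 miRNAs were tested in the cortex, its log2 difference was -2.98 (SE 1.26; edgeR, unadjusted p = 0.0180, Benjamini-Hochberg adjusted p = 0.546), and 6.67% of all miRNAs met the criteria in that fit. The same fits gave -2.35 (SE 1.37; unadjusted p = 0.0861 by edgeR) in striatum/thalamus and 0.59 (SE 1.60) in cerebellum. The other arm, miR-337-5p, had 76138 reads and was at 1820 ± 119 CPM in sham and 1670 ± 166 CPM in HIBI cortices (SD, n = 4), a log2 difference of -0.13 (SE 0.127; edgeR, adjusted p = 0.953). MiR-337-3p also has an antisense partner, miR-3544-5p, that shares 21 bases and had 14 reads in all.
mmu-miR-337-3p: uCAGCUCCUAUAUGAUGCCUUU
mmu-miR-3544-5p: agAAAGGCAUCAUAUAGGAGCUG
For this hairpin the 5p arm is thus the abundant one, and the listed member is its passenger.

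**Figure D5:**
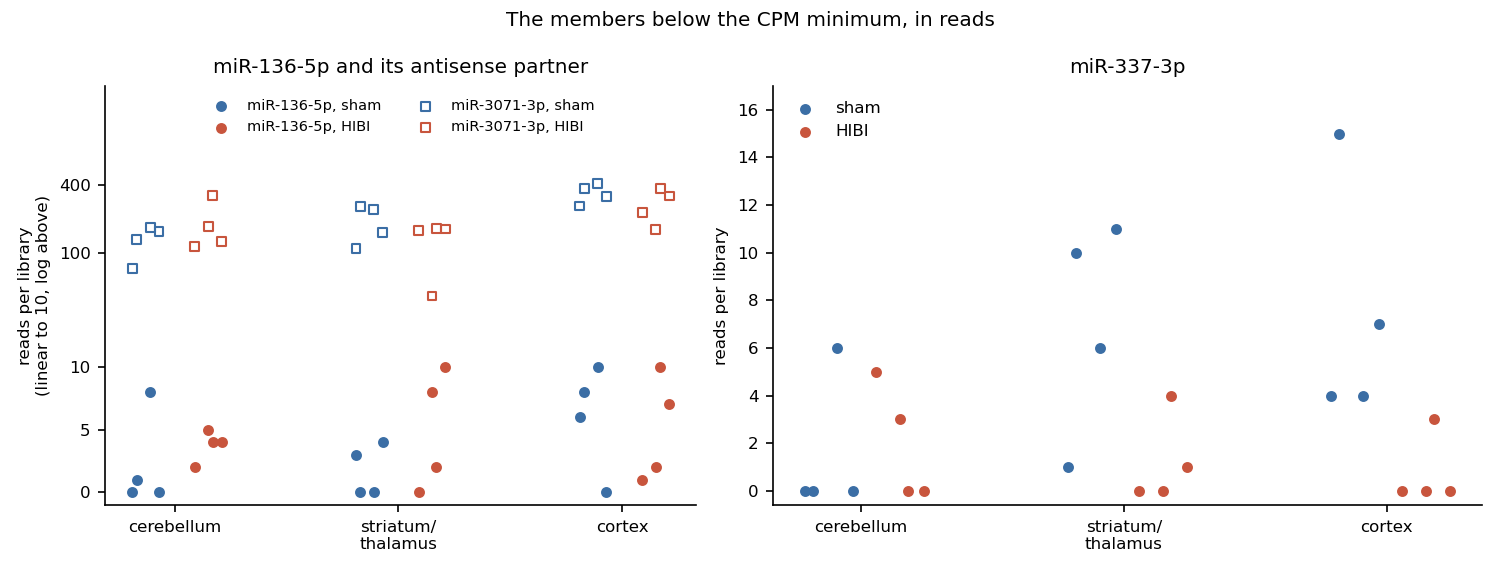
Reads per library (y axis) of miR-136-5p with its antisense partner miR-3071-3p (left; linear up to 10 reads and logarithmic above) and of miR-337-3p (right; linear), by region (x axis; blue, sham; red, HIBI). MiR-3071-3p lies at 42 to 411 reads and miR-136-5p at 0 to 10, and 3 of 4 HIBI cortices hold 0 reads of miR-337-3p.

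The members moved together in part. Over the 24 libraries the 28 pairs of the 8 tested members had correlations (Pearson's r of log2 CPM) from 0.16 to 0.90 with a median of 0.69, and with the mean of each group removed from -0.21 to 0.70 with a median of 0.33. These libraries share pups, regions, and scaling, and the values are descriptions. Most like the mean of the members were miR-412-5p (0.97), miR-409-3p (0.96), miR-409-5p (0.95), miR-137-5p (0.95), and miR-337-5p (0.94), where the median of all miRNAs was -0.05. With group means removed they were miR-409-3p (0.85), miR-666-5p (0.84), miR-409-5p (0.80), miR-412-5p (0.80), and miR-135a-1-3p (0.79). Of these 7 names, miR-412-5p, miR-409-3p, miR-409-5p, and miR-666-5p belong to the Mirg cluster further along the locus, miR-337-5p to the proximal hairpins, and miR-137-5p and miR-135a-1-3p to neither.

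The other arms and hairpins between Meg3 and Rian numbered 25 entries, of which 12 were tested across regions. In sham pups 10 of the 12 were higher in cortex and 9 in striatum/thalamus than in cerebellum, and 0 were lower. Of all miRNAs tested, 29.9% and 31.7% were called higher in these comparisons (58.6% and 62.8% in either direction). MiR-673-5p had the largest cortical difference from cerebellum (log2 2.60, SE 0.443; edgeR, Benjamini-Hochberg adjusted p = 3.38e-05), while miR-1188-3p was at -0.21 (SE 0.755) and not called. Of the Mirg cluster, 48 of 72 entries were tested. Against the same shares of all miRNAs, 45 were higher in sham cortex and 42 in sham striatum/thalamus than in cerebellum, with 0 lower. MiR-496a-3p had a log2 difference between cortex and cerebellum of 1.90 (SE 0.448; edgeR, adjusted p = 0.00114) and miR-329-5p of 0.31 (SE 0.444), not called.

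After HIBI, 0 of the proximal entries were called in any region (of 9 tested in cerebellum, 15 in striatum/thalamus, and 12 in cortex). Of all miRNAs tested, 7.83%, 2.75%, and 3.41% were called in these regions. In the Mirg cluster 4 of 44 entries were called in the cerebellum, where 3.69% of all miRNAs were called higher: miR-376b-3p (log2 0.89), miR-409-5p (0.61), miR-410-3p (0.61), and miR-410-5p (0.99). MiR-668-5p was called higher in the striatum/thalamus (1.11; 2.52% of all miRNAs) and miR-487b-5p in the cortex (0.81; 3.17% of all), 1 of 49 entries in each. Adjusted p-values were 0.432 for the cerebellar miRNAs, 0.980 for miR-668-5p, and 0.914 for miR-487b-5p (edgeR, Benjamini-Hochberg). With all pups, the median log2 difference in the cerebellum was 0.34 for the proximal and 0.52 for the Mirg entries. The members were at 0.36 and all miRNAs at 0.11. The medians of the proximal and Mirg entries were 0.12 and -0.11 in the striatum/thalamus, and -0.06 and -0.10 in the cortex.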

How the data were processed

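MiRNA-Seq libraries (NEXTFLEX Small RNA Kit, Illumina NextSeq) of 3 regions from 8 pups were analysed. The authors aligned reads to mature mouse miRNAs of miRBase with bowtie2 and deposited raw counts for each library; the miRBase release, the counting tool, its treatment of strand, and versions are not given in the sources used here. The deposited tables also hold the authors' edgeR comparisons (log2 fold changes and log2 CPM, with p-value and false discovery rate), which were not used. Entries of castor bean (20 of 1551, 0.000156% of counts) were left out. Depth was 1254185 to 3406624 mouse counts. Limits for a library at 0 reads cover counting error only, and the confidence intervals are those of the fits and include the spread between pups.

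Tests used edgeR 4.0.16 (TMM, glmQLFit, glmQLFTest) with limma 3.58.1 in R 4.3.3, and DESeq2 1.42.0 as an alternative. Only miRNAs averaging above 10 CPM entered. HIBI was compared with sham in the 8 libraries of a region, and called by the study's criteria (change of more than 1.5-fold, p under 0.05 before adjustment). Regions and the difference of injury effects were tested in 1 model of 24 libraries and 6 groups, called at a Benjamini-Hochberg adjusted p under 0.05. P-values were adjusted over all miRNAs tested. Arm ratios used exact two-sided permutation tests (Python 3.11.15, scipy 1.17.1) over 70 arrangements of pups or 256 sign flips.

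The regions came from the same animal, so the pups pair the libraries; deviations from group means of same-numbered pups had median correlations of 0.270 (cortex and cerebellum), 0.160 (striatum/thalamus and cerebellum), and 0.190 (cortex and striatum/thalamus) over 435 miRNAs. Each library is 1 region of 1 pup, and every replicate pair differed beyond sampling noise. The fits were tested on simulated counts. Alternatives were other scalings, no CPM minimum, DESeq2, edgeR's exact test, the pup as a block, another pseudocount, and each pup left out. The members, the lists, and the rule for named miRNAs (the members; other locus miRNAs called after HIBI or with the 2 most extreme differences each way between sham cortex and cerebellum; the 5 most alike by each correlation; marker miRNAs) were chosen with earlier results of these data known. Sequences and positions came from RefSeq (GRCm38.p6, 10 of 10 members and 1291 of 1531 entries matched) and GENCODE M21.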

Additional observations from a re-analysis of the deposited data

Results flagged for a closer look

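In 6 of 60 groups of 4 pups a member had 1 pup far from the other 3 relative to the range of the group (Dixon's test). For normally distributed values chance alone flags about 1 in 20 groups, here 3. That rate does not hold for members near 0, since a group with 3 libraries at 0 is flagged whatever the other value. MiR-127-3p was at 9513 CPM in the cerebellum of HIBI pup 1, against 3425 to 4180 CPM in the other HIBI cerebella, and at 9389 CPM in the cortex of sham pup 3, against 7772 to 7968 CPM. The remaining flags rest on 10 reads or fewer. MiR-136-5p was at 3.71 CPM in the cerebellum of sham pup 6 (0 to 0.537 CPM in the others) and at 0 CPM in the cortex of sham pup 8 (2.55 to 3.02 CPM in the others). MiR-337-3p was at 2.78 CPM in the cerebellum of sham pup 6 and at 1.01 CPM in the cortex of HIBI pup 5, with the others of each group at 0.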

How the results depend on the processing

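Of the other settings, the counts of members called changed by more than 1.5 times under the absence of a CPM minimum alone, which adds rare miRNAs: HIBI against sham then gave 1 call in the cerebellum (miR-136-3p; 8.06% of all miRNAs) and 1 in the cortex (miR-337-3p; 6.67% of all), and HIBI cortex against cerebellum gave 3 in place of 6 (9.01% of all). The median of all miRNAs in the cerebellum after HIBI was 0.11 with TMM, -0.02 with upper quartile scaling, and 0.27 with library size only. Small HIBI values changed sign: with library size only, miR-127-5p was at 0.14 in cerebellum and 0.00159 in cortex and miR-370-3p at 0.0181 in striatum/thalamus. With upper quartile scaling miR-431-5p was at -0.00749 in cerebellum and -0.00286 in cortex, and the forebrain minus cerebellum values of miR-127-5p and miR-431-5p were 0.054 and 0.022. DESeq2 gave 0.0041 for miR-370-3p in striatum/thalamus, and no CPM minimum 0.0233 for miR-127-5p and 0.0170 for miR-434-3p in cortex. Sham cortex against striatum/thalamus was -0.00137 for miR-431-5p with library size only. With 5 reads added, arm ratio differences were 0.43 for miR-136 after HIBI in cerebellum, 0.00573 for miR-127 between striatum/thalamus and cerebellum, and 0.52 for miR-136 between cortex and striatum/thalamus. Why these signs changed was not tested. Without a CPM minimum, miR-127-5p and miR-434-5p lost their call in sham striatum/thalamus against cerebellum, and miR-434-3p in sham cortex against striatum/thalamus.

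With the pup as a block, the call of miR-127-3p in HIBI cortex against striatum/thalamus was gained (0.56; edgeR, Benjamini-Hochberg adjusted p = 0.0295), and no other call of a member changed. Unpaired, the arm ratio tests between regions kept 2 calls.

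Leaving out 1 pup at a time gave 0 to 1 members called after HIBI in cerebellum, and 0 to 0 in the other regions and for the forebrain minus cerebellum value. It gave 6 to 8 for sham cortex and 5 to 7 for sham striatum/thalamus against cerebellum, 1 to 3 for sham cortex against striatum/thalamus, and 4 to 6, 4 to 5, and 2 to 4 for the same comparisons in HIBI pups. The 2 arm ratio calls fell to 0, since 7 pups cannot give an exact permutation p below 0.0156 (adjusted 0.0703), while the miR-434 differences stayed between 0.99 and 1.17 and between -1.24 and -1.15. The following ranges crossed 0. After HIBI in cerebellum, miR-127-5p ran from -0.17 to 0.11. In striatum/thalamus miR-127-5p ran from -0.22 to 0.051, miR-370-3p from -0.071 to 0.14, miR-431-5p from -0.020 to 0.22, miR-433-3p from -0.050 to 0.35, and miR-434-5p from -0.17 to 0.031. In cortex miR-127-5p ran from -0.083 to 0.093, miR-136-3p from -0.24 to 0.022, miR-431-5p from -0.064 to 0.10, miR-433-3p from -0.20 to 0.23, and miR-434-3p from -0.094 to 0.077. Forebrain minus cerebellum values ran from -0.20 to 0.18 for miR-127-5p and from -0.26 to 0.079 for miR-431-5p, and sham cortex against striatum/thalamus from -0.036 to 0.11 for miR-431-5p. For arm ratios after HIBI, miR-434 in cerebellum ran from -0.30 to 0.017, miR-127 in striatum/thalamus from -0.34 to 0.026, and miR-136 from -1.45 to 0.12 in cerebellum and -0.88 to 0.67 in cortex. Between regions, miR-127 ran from -0.00128 to 0.26 (cortex, cerebellum) and -0.17 to 0.11 (striatum/thalamus, cerebellum), and miR-136 from -0.19 to 0.44, -0.39 to 0.72, and -0.66 to 0.41 (cortex, striatum/thalamus).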
